A study of Mus musculus with 17 samples.

Results

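In all, 5 stretches of the mouse genome were examined in accessible chromatin of bone marrow-derived macrophages (BMDMs). They were picked because they held sites with a peak mainly in cells with or mainly in cells without Nur77. By the definition given below, each held from 1 to 5 such sites. Nur77 is the nuclear receptor encoded by Nr4a1. In mm10 coordinates the segments were chr14:67700000-71200000, chr6:114100000-116500000, chr1:170000000-174200000, a proximal chromosome 3 segment at chr3:84500000-87600000 and a distal chromosome 3 segment at chr3:95500000-96900000, 14.6 Mb in all. They were chosen by the difference between genotypes in these same peak lists, so every genotype value inside them is a description and carries no test. A site is a merged interval of peaks that overlap by at least 1 bp and come from at least 2 of the 17 lists. The segments held 1022 of the 77900 sites. The stretch of equal length on each side of every segment served as its flank, and the flanks held 1278 sites.

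The 17 lists came from ATAC-seq, in which a transposase cuts open DNA and leaves sequencing adapters. All cells were BMDMs of male C57Bl6/J mice aged 6 to 12 weeks, grown for 7 days with medium conditioned by L929 cells. The groups were wild-type (WT) at 0 h, 1 h and 18 h of lipopolysaccharide (LPS, 100 ng/ml), with 3, 2 and 3 lists, and Nur77-deficient (KO) at the same times with 3 lists each. One of the WT 1 h lists is named replicate 1-2. The KO mice were whole-body knockouts, bred from C57Bl6/J mice carrying Cre under the human CMV promoter and mice with a loxP-flanked Nr4a1 locus, and then kept without Cre, although the genotype label of the KO samples reads cre. The WT mice were littermates. No source states how many mice stand behind the lists, so a p-value below measures the spread between these lists, which may be technical.

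The lists differed in length, from 24389 to 71456 intervals, and give no read totals, so depth is unknown. Each list was therefore cut to its best 24389 intervals by p-value, the number in the shortest list. A peak kept in this way is called a matched-number peak, and its rank runs from 1, the smallest p-value, to 24389. A missing matched-number peak means that the site ranked lower, not that its chromatin was closed. KO 18 h replicate 1 stood apart, with a median peak width of 135 bp against 338 to 661 bp in the other lists. Of 7 macrophage marker promoters, 5 had a matched-number peak in every list, and Csf1r and Cd68 had one in 12 lists each. Of 3 neutrophil markers, 0 had one in any list. Among markers of other cells, Cd3d had one in all 17 lists, Col1a1 in 14 and Ms4a1 in 10, whereas Cd3e, Cd4, Cd79a, Col3a1 and Epcam had none. At Nr4a1 itself, 5 sites lay within 1 kb of the gene or in it, and 0 of them were divided by genotype as defined below. The strongest, chr15:101262097-101263296, had a matched-number peak in 8 of 8 WT and 8 of 9 KO lists, with better ranks in WT at 0 h (3736 to 5422 against 11739 to 18154) and at 1 h (3315 and 4973 against 6613 to 10238), without overlap, and with overlap at 18 h. These peaks do not show which part of the gene is deleted.

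Chromatin is opened at promoters and enhancers by transcription factors that displace nucleosomes. In macrophages PU.1 and C/EBP factors keep many such sites open, and LPS adds AP-1 and NF-kB, which act within the first hours. The segments hold immune gene families that lie in tandem. The chromosome 1 segment contains Fc gamma receptors, which bind antibody; the SLAM family, receptors through which blood cells contact each other; and the Ifi200 family with Aim2, interferon-inducible proteins that bind DNA. The distal chromosome 3 segment contains a cluster of replication-dependent histone genes.

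The sequences around the peak summits of sites that separated the genotypes are shown first. The first 5 had a peak in lists of one genotype only, at any rank. The next 2 had a matched-number peak in every list of one genotype and no list of the other. The last, at Cd48, separated them less fully, with a matched-number peak in 1 WT list and 8 KO lists. It is shown as the only divided site at a promoter of the SLAM family. Each run is 201 bases of the plus strand of GRCm38.p6, the assembly of mm10, 5′ to 3′, with 100 bases on each side of the summit. Capitals mark letters that match AP-1 (TGACTCA), PU.1 (GAGGAAGT), C/EBP (TTGCNNAA), the Nur77 monomer element NBRE (AAAGGTCA), an NF-kB consensus or a CTCF consensus, on either strand and with overlaps between motifs allowed.
Pebp4 intron, first site, chr14:69851262-69851462: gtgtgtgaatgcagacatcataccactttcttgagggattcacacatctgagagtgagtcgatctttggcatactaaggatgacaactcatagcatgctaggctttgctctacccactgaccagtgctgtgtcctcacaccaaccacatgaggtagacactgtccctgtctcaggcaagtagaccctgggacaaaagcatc
Pebp4 intron, second site, chr14:70000643-70000843: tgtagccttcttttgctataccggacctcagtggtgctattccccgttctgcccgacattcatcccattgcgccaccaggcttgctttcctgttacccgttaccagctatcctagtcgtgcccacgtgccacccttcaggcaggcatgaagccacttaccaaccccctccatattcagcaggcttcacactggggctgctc
beyond the Gfra2 3′ end, chr14:70981178-70981378: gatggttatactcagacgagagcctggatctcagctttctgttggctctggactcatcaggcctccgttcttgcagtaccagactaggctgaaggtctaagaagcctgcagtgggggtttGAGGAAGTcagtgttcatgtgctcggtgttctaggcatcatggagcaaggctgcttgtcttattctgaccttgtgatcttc
Fcrl1 intron, chr3:87401468-87401668: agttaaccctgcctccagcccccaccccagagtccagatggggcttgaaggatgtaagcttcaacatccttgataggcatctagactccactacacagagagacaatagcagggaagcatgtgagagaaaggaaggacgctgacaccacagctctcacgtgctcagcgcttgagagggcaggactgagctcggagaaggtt
upstream of Hfe2, chr3:96489154-96489354: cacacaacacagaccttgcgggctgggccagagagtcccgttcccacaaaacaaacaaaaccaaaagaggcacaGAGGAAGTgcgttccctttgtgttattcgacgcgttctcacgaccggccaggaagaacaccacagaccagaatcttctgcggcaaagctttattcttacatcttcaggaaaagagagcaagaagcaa
beyond the Uap1 3′ end, chr1:170136478-170136678: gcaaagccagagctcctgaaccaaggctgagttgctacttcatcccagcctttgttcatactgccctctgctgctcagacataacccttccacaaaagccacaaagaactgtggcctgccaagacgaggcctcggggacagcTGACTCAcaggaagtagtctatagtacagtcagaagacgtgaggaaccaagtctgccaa
beyond the Ifi202b 3′ end, chr1:173961580-173961780: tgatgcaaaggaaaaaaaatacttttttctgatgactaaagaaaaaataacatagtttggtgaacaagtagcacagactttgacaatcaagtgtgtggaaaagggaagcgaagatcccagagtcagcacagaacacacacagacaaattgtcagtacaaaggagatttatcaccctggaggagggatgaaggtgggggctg
Cd48 promoter, chr1:171681890-171682090: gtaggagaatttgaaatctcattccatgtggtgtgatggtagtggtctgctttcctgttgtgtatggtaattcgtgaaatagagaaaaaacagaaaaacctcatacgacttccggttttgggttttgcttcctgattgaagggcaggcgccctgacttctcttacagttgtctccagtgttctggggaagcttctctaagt

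Of the windows shown, the Uap1 window held an AP-1 match, and the Gfra2 and Hfe2 windows each a PU.1 match. Both Pebp4 windows, and those at Fcrl1, Ifi202b and Cd48, held none of the motifs. The Hfe2 window was 70.1% repeat sequence as masked in the assembly, the others shown at most 39.3%. Over all 16 divided sites described below, AP-1 letters occurred in 5 windows, PU.1 in 4, C/EBP in 1, NF-kB in 1, NBRE in 0 and CTCF in 0. Over the 40474 sites with a matched-number peak, windows of the same length held AP-1 in 16.1%, PU.1 in 7.67%, C/EBP in 11.3%, NF-kB in 4.75%, NBRE in 1.07% and CTCF in 3.07%. Of the 5 windows with AP-1 letters, 4 were among the 8 sites higher in WT and 1 was among the 8 higher in KO. A match is a description of letters and not of binding.

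Few sites separated the genotypes anywhere. Of the 557 sites in the segments with at least 1 matched-number peak, 5 were all-or-none, meaning that every list of one genotype and no list of the other had a matched-number peak there. The flanks had 0 among 689, and the whole series had 8 among 40474, or 0.0198%. Allowing at most 1 exception in each genotype, a site was called divided. The segments then held 16 divided sites, 8 higher in WT and 8 higher in KO, or 2.87% of their sites with a matched-number peak. The even split depended on the setting, with 4 higher in WT and 0 in KO among the best 10000 intervals of each list, 7 and 0 with peaks required to cover 50% of a site, and 11 and 4 with all deposited intervals. The flanks held 0, the whole series 30, or 0.0741%, and the genome outside the segments 14, or 0.0351%. By direction, 0.0395% of all sites were divided with WT higher and 0.0346% with KO higher. The segments were chosen by this contrast, so nothing is read from these shares.

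The segments held from 1 to 5 divided sites each. The chr14 segment held 5 divided sites among 92 with a matched-number peak, 4 of them higher in KO. The chr6 segment held 3 among 95, 2 of them higher in WT, and the chr1 segment 5 among 202, 3 of them higher in KO. The proximal chr3 segment held 1 among 62 and the distal chr3 segment 2 among 106, all higher in WT. The bars of the share of divided sites show the order, with chr14 at 5.43%, chr6 at 3.16%, chr1 at 2.48%, distal chr3 at 1.89% and proximal chr3 at 1.61%.

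**Figure D1:**
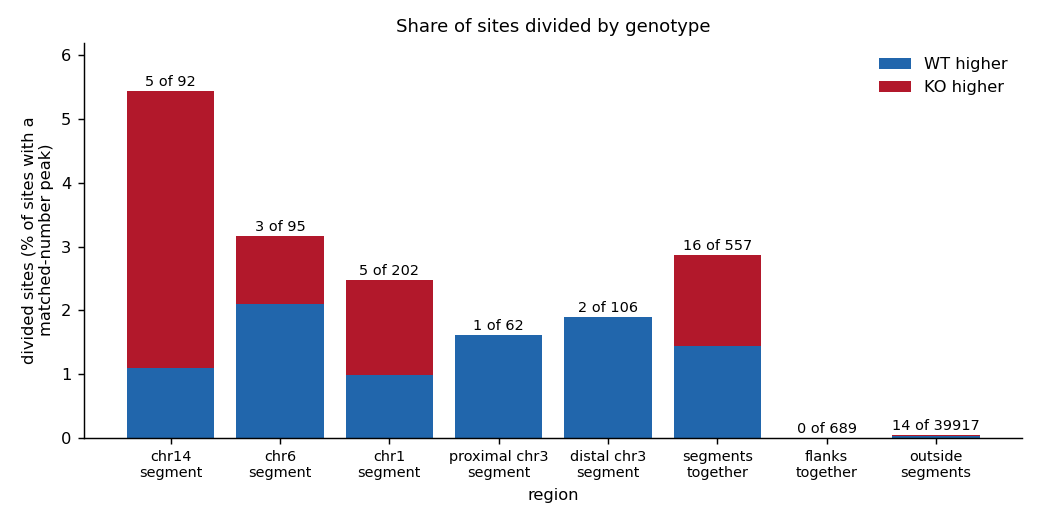
Bars give the percentage of sites with a matched-number peak that were divided by genotype (at most 1 exception in each genotype), by region, with WT higher in blue and KO higher in red and the counts above each bar. The segments together reached 2.87%, the flanks 0% and the genome outside the segments 0.0351%.

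Inside the segments the divided sites were scattered among sites that did not separate the genotypes. In the chr14 segment 75 of the 78 sites between the outermost divided ones were undivided, and 17 had a matched-number peak in all 17 lists. The chr6 segment had 85 undivided of 86 in between, with 14 in all lists, and the chr1 segment 189 of 192, with 38 in all lists. Every divided site had a site present in all 17 lists within 123 kb, and the nearest such neighbour, beside the Dock5 site, lay 3.25 kb away. The plot along the segments shows this, with divided sites near the top or bottom of a panel and most others near 0. In the chromosome 3 panels the divided sites lie only near the bottom.

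**Figure D2:**
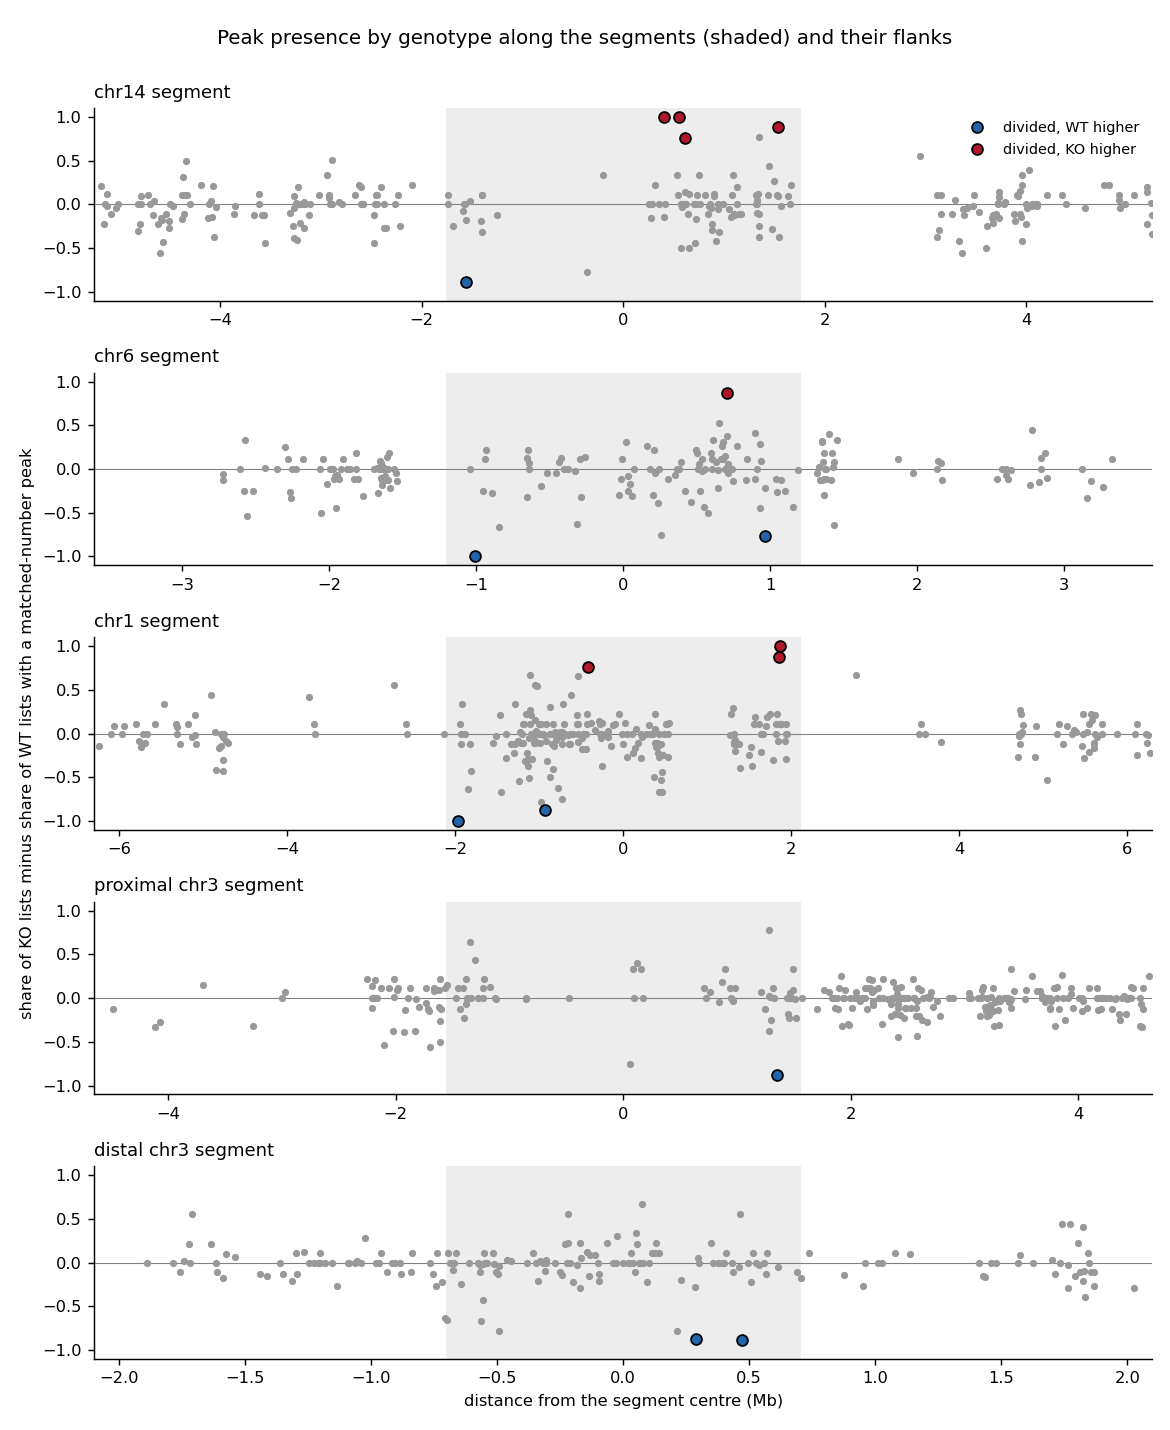
Each point is a site with a matched-number peak, placed by its distance in Mb from the segment centre (shaded: the segment; unshaded: its flanks), with the share of KO lists minus the share of WT lists that had the peak on the vertical axis. Blue and red points are the 16 divided sites, all of them in the shaded segments, and grey points are undivided.

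The boundaries of the segments lay between 137 and 988 kb outside their outermost divided sites, apart from the proximal chr3 segment, where the only divided site lay 2901.5 kb from the start and 199 kb from the end. The nearest divided site beyond a boundary was in the intron of Rapgef2, 5322 kb before the proximal chr3 segment. On chromosome 6 it was at BC049715, 20336 kb after the segment, on chromosome 1 in Zranb3, 42008 kb before it, and chromosome 14 had no other. Just beyond the threshold for a divided site, 8 segment sites on the WT side and 4 on the KO side had 2 exceptions in all, 3 of these 12 being divided. The flanks had 0 sites with fewer than 3 exceptions, and 4 with 3. Within 2 Mb of Nr4a1, 192 sites had a matched-number peak and 1 was divided.

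In the chr14 segment, 3 neighbouring sites at Pebp4, which encodes a phosphatidylethanolamine-binding protein, had peaks in KO. At chr14:69850589-69851628, in an intron (sequence above), all 9 KO lists had a matched-number peak, at a best rank of 8701, a median of 14596 and a worst of 20846. At chr14:70000305-70001250, in an intron of the same gene (ENSMUSG00000022085.4), the KO ranks were 5131, 7664 and 16717. Neither had a peak of any rank in the 8 full WT lists. KO at 18 h held the best ranks at the second site, between 5131 and 5545 in 3 lists, against 6004 to 13205 at 0 h and 7845 to 16717 at 1 h. The third site, chr14:70060102-70061137, lay 668 bp beyond the 3′ end of Pebp4. It had a matched-number peak in 8 of 9 KO lists and 1 of 8 WT lists, and in the full lists a peak in 9 KO and 6 WT lists. It thus had peaks in both genotypes, unlike its neighbours, and the ranks overlapped, KO 18 h replicate 1 holding it at rank 27940 and WT 18 h replicates 2 and 3 at 24326 and 24685.

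Farther along chromosome 14, chr14:70980698-70981699 lay 1.44 kb beyond the 3′ end of Gfra2, a receptor for ligands of the GDNF family. Its matched-number peaks numbered 8 in KO and 0 in WT, and the full lists held 9 and 0. The KO ranks were 13726 to 23528 at 0 h, 17835 and 18771 in 2 of the 3 lists at 1 h, and 6367 to 12674 at 18 h, so the 18 h ranks did not overlap the others. The only site of the segment higher in WT was chr14:67887782-67888501, in an intron of Dock5, an activator of Rac. It had matched-number peaks in all 8 WT lists, at ranks 10740 to 21821, and in KO 0 h replicate 1 at rank 23553. In the full lists 6 KO lists held it.

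**Figure D3:**
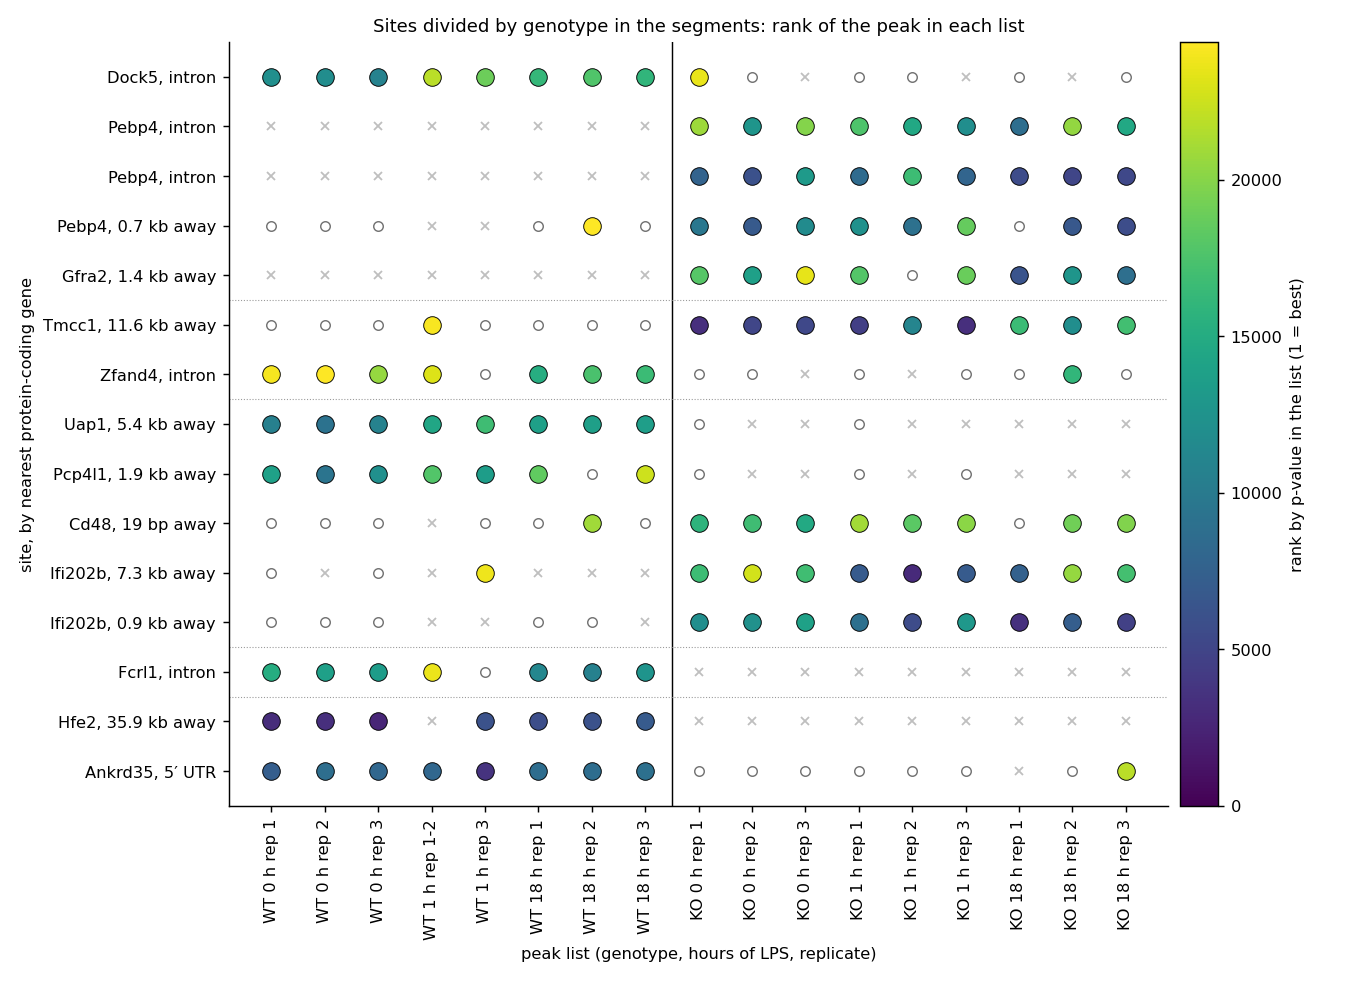
Rank of the peak at 15 of the 16 divided sites (rows, by segment from chr14, chr6, chr1 and proximal chr3 to distal chr3, in order of position) in each of the 17 lists (columns). Filled circles are matched-number peaks coloured by rank, small open circles are peaks found only in the full list, crosses are lists with no peak, and the distance in a label is from the gene's annotated bounds. The 2 Pebp4 introns, the Gfra2 site, the Fcrl1 intron and the Hfe2 site show crosses in every list of the other genotype.

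In the chr6 segment, the site chr6:116006154-116008472, 11.6 kb beyond the 3′ end of Tmcc1 on the side of the semaphorin receptor gene Plxnd1, was higher in KO. All 9 KO lists had it, at ranks 3264 to 5273 at 0 h, 3284 to 11127 at 1 h and 11977 to 17022 at 18 h. WT 1 h replicate 1-2 had it at rank 24132, and 8 of 8 full WT lists held it at a lower place. Higher in WT, chr6:116265668-116267297 in an intron of Zfand4, had matched-number peaks in 7 WT lists and 1 KO list, but in 8 and 7 of the full lists. The ranks overlapped, at 15179 to 24379 in the 7 WT lists and 16089 in KO 18 h replicate 2. WT 1 h replicate 3 held it at rank 29962, behind KO 0 h replicate 1 at 27123.

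In the chr1 segment, 2 sites were higher in WT. At chr1:170136250-170137005, 5.36 kb beyond the 3′ end of Uap1, an enzyme that makes UDP-N-acetylglucosamine, all 8 WT lists had a matched-number peak. Ranks were 9149 to 10724 at 0 h, 14444 and 16828 at 1 h, and 13564 to 13781 at 18 h, while KO had it in 0 matched-number and 2 full lists. At chr1:171171064-171172086, 1.87 kb beyond the 3′ end of Pcp4l1, the matched-number peaks numbered 7 in WT and 0 in KO. The WT ranks ran from 9342 through a median of 13897 to 22553, and 3 full KO lists held the site.

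The 3 sites of the chr1 segment that were higher in KO lay beside genes of the SLAM and Ifi200 families. The promoter of Cd48, the ligand of CD244, lay in chr1:171680948-171682722 with the summit 19 bp before the gene. It had a matched-number peak in 8 of 9 KO lists, at ranks 14691 to 21049, and only in WT 18 h replicate 2, at rank 20878, among 8 WT lists. Of the full WT lists 7 held it, the others of these at ranks 24973 to 32557, so this promoter had peaks in both genotypes. The ranks of the WT 18 h replicate 2 list and of the KO lists overlapped. KO 18 h replicate 1 held the site only in its full list, at rank 28736, worse than every WT rank but 32557.

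Both other KO-higher sites lay beyond the 3′ end of Ifi202b (ENSMUSG00000026535.9), a member of the Ifi200 family. The nearer, chr1:173961101-173962154 at 0.888 kb, was all-or-none, with 9 KO lists at ranks 11922 to 13993 at 0 h, 5551 to 12968 at 1 h and 3355 to 7194 at 18 h. In WT 5 full lists held it, at best at rank 29194. The farther, chr1:173954648-173955825 at 7.29 kb, had its best KO ranks at 1 h, from 2940 to 6923, against 16724 to 22691 at 0 h and 7448 to 20506 at 18 h. WT 1 h replicate 3 alone had it among the WT matched-number lists, at rank 23738. The KO lists thus put the nearer site highest at 18 h and the farther site highest at 1 h. Genes of this family resemble each other closely, and how reads matching several copies were placed is not stated beyond the mapping quality limit, so which copy a peak belongs to is uncertain.

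On chromosome 3 the divided sites were all higher in WT. The intron of Fcrl1 (ENSMUSG00000059994.10), an Fc receptor-like protein of B cells, held chr3:87401064-87401933. It had matched-number peaks in 7 WT lists, at ranks 13374 to 15079 at 0 h, 23669 in 1 of 2 lists at 1 h and 10634 to 12627 at 18 h, and none of any rank in KO. At the promoter of the same gene all 17 lists had a matched-number peak. The site chr3:96487038-96489872, 35.9 kb upstream of the iron regulator Hfe2, had ranks of 2634 to 3315 at 0 h, 6171 in 1 of 2 lists at 1 h and 5725 to 6893 at 18 h, the best of the WT-higher sites at 0 h and 18 h. It too had no KO peak of any rank, and WT 1 h replicate 1-2, the shortest list, lacked it. The last, chr3:96669608-96670718, covered the start of Ankrd35, with WT ranks of 3535 to 8943 in 8 lists, 3535 and 8069 of them at 1 h, and a matched-number peak in KO 18 h replicate 3 at rank 21851. The full lists held it in 8 WT and 8 KO samples.

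Sites that were open in every list differed little between genotypes, with 1 exception. In the segments 130 sites had a matched-number peak in all 17 lists, and the median size of the genotype difference in log2 rank was 0.22, beside 0.21 at 185 flank sites and 0.19 at 10413 sites of the whole series. At 1 of the 130 the ranks of the genotypes did not overlap. Over the series this held for 7 sites, or 0.0672%. The site, chr1:173765919-173767749, is the promoter of Ifi204, another Ifi200 gene, with WT ranks from 2240 through a median of 4655 to 7071 and KO ranks from 642 through 1049 to 2069. The KO minus WT difference was -2.11 on the log2 scale of rank, the KO ranks being the better ones.

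Divided sites were also counted beside the gene families of the segments. A divided site lay within 10 kb of 1 of 13 Ifi200 and Aim2 genes (Ifi202b), 1 of 9 SLAM genes (Cd48), 1 of 11 Fc receptor genes and relatives (Fcrl1), 0 of 10 histone genes and 0 of 30 other macrophage and signalling genes. Of the segment sites with a matched-number peak, 2.87% were divided. The share over all genes was not counted, so nothing about the families is read from these counts. Promoters had a matched-number peak in every list at 3 Ifi200 genes (Ifi204, Ifi207 and Ifi211), at Slamf8 and Cd244a, at Fcer1g and Fcrl1, at 4 histone genes and at 11 of the 30 others, Mcl1 and Usf1 among them. Other Ifi200 promoters went either way: a matched-number peak was found in 4 WT lists and 1 KO list at Ifi206, in 3 and 0 at Ifi209 and in 2 and 0 at Ifi213, but in 2 and 4 at Ifi208 and in 0 and 1 at Ifi214. The full lists gave 8 and 1 at Ifi206, 6 and 1 at Ifi209, 3 and 0 at Ifi213, 3 and 7 at Ifi208, and 0 and 3 at Ifi202b. The inhibitory Fc receptor gene Fcgr2b had a matched-number promoter peak in 5 WT lists and 1 KO list, but a peak in 7 full lists of each genotype. These promoter counts were not tested. Egr3, an immediate-early zinc finger factor, had a matched-number promoter peak in 3 of 8 WT and 7 of 9 KO lists, and in all 5 lists at 1 h. In the full lists its promoter had a peak in 5 WT and 8 KO lists.

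The number of segment sites with a matched-number peak was similar in the genotypes at 0 h and 1 h and lower in KO at 18 h. WT averaged 304 and KO 294 over the 3 times, a difference of -10.1 with a spread between lists of one group of 9.52 (SD). The flanks differed by -15.8, with an SD of 13.1. At 0 h and 1 h the segments differed by -2.33 and 3. At 18 h they differed by -31, and the WT lists, from 319 to 333, did not overlap the KO lists, from 286 to 313. The chr1 segment averaged 122 ± 1.53 in WT and 106 ± 9.24 in KO at 18 h (SD, n = 3 each), again without overlap. The flanks differed by -32.7 at 18 h, with 399 to 414 in WT and 372 to 379 in KO, also without overlap. Over the whole lists at 18 h, sites with a matched-number peak averaged 23585 in WT and 21663 in KO. As a share of each list's sites, the segments held 1.37% to 1.42% in WT and 1.30% to 1.41% in KO then, with overlap. KO 18 h replicate 1, with its narrow peaks, had the lowest of these counts. Without it the difference over the 3 times was -8.33.

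LPS was not used to choose the segments, so its contrasts were tested, by a two-sided exact permutation test that exchanged LPS labels within genotype, with Benjamini-Hochberg adjustment over 14 tests. At 1 h fewer segment sites had a matched-number peak than at 0 h, 282.5 against 301.5, a fall seen in 5 of 5 LPS lists (exact p = 0.005, the smallest this design allows; adjusted p = 0.0175). The counts were 304, 302 and 302 in WT at 0 h and 270 and 292 at 1 h, and 307, 295 and 299 in KO at 0 h and 284 in all 3 lists at 1 h. The groups did not overlap in either genotype. The call was lost with all deposited intervals (exact permutation p = 0.155) and with peaks required to cover 50% of a site (exact permutation p = 0.065), with the same direction. Among the segments, chr6 fell by 6.92 sites, chr1 fell by 6.25 and proximal chr3 fell by 6.42 (exact permutation p = 0.005 and adjusted p = 0.0175 for each). The differences at chr14, 2 sites (exact p = 0.39, adjusted p = 0.455), and at distal chr3, -1.42 (exact p = 0.12, adjusted p = 0.24), did not pass, nor did that in the flanks, -26.7 sites (exact p = 0.045, adjusted p = 0.105).

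The fall at 1 h was also set against the whole lists. Over the series a list had on average 23406 sites with a matched-number peak at 0 h and 22470 at 1 h, a difference of -1745 in WT and -125 in KO, and more than 1 peak of a list can fall on a site. Taken as a share of each list's sites, a measure added after the counts were seen, the segments held 1.29% at 0 h and 1.26% at 1 h (exact permutation p = 0.13, adjusted p = 0.13 over 4 tests). The difference in the share was 0.00232 percentage points in WT and -0.0645 in KO, where the lists held 1.28% to 1.35% at 0 h and 1.21% to 1.27% at 1 h, without overlap. Whether the genotypes differed in this was not tested. Leaving out 1 list gave -0.0381 to -0.0200 percentage points (exact permutation adjusted p from 0.04 to 0.3 over 4 tests), and the difference passed only without WT 0 h replicate 3.

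At 18 h the count was 10.7 higher than at 0 h, which did not pass (exact permutation p = 0.155, adjusted p = 0.271). This is the mean of a difference of 25 sites in WT and of -3.67 in KO, and its direction turned with all deposited intervals, to -134.8, and with 50% cover, to -48.3. The chr1 segment had 12.2 more in the chr1 segment (exact permutation p = 0.025, adjusted p = 0.07, higher in 6 of 6 lists), 18.7 more in WT and 5.67 in KO. The share of each list's sites that lay in the segments rose from 1.29% to 1.38% (exact permutation p = 0.01, adjusted p = 0.04 over 4 tests). The number of sites with a matched-number peak over the whole list changed by -782 (exact permutation p = 0.11, adjusted p = 0.13), -170 in WT and -1393 in KO. In KO the share was thus higher while the segment count was not. WT lists held 1.25% to 1.29% at 0 h and 1.37% to 1.42% at 18 h, without overlap, and KO lists 1.28% to 1.35% and 1.30% to 1.41%, with overlap. Leaving out any 1 list kept the rise between 0.0817 and 0.108 percentage points (exact permutation p from 0.01 to 0.025). Adjusted over the 4 tests, p ran from 0.04 to 0.1, and the call was lost in 7 of these 12 cases, those without WT 0 h replicate 1 or 2, WT 18 h replicate 2, KO 0 h replicate 1 or 2, or KO 18 h replicate 1 or 2.

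**Figure D4:**
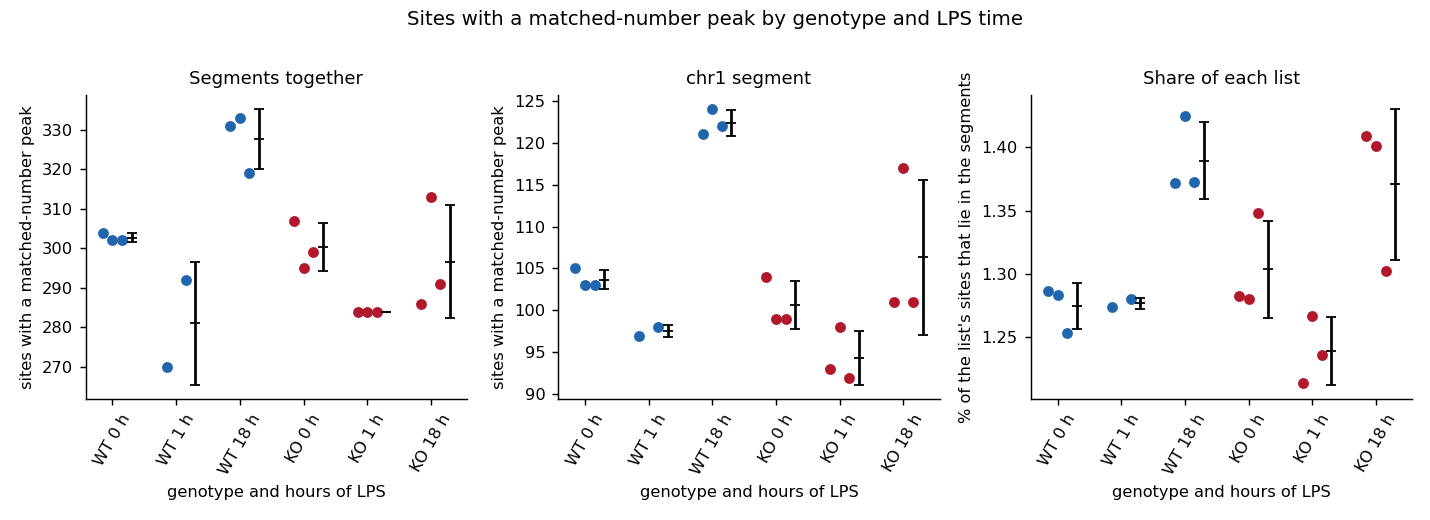
Points are lists, in blue for WT and red for KO, by genotype and hours of LPS, with the group mean and SD in black at the right of each group (2 lists for WT at 1 h, otherwise 3). The panels give the number of sites with a matched-number peak in the segments together and in the chr1 segment, and the percentage of each list's sites that lie in the segments, on axes that do not start at 0. The 1 h counts lie below those at 0 h in both genotypes, and the WT shares at 18 h, 1.37% to 1.42%, lie above those at 0 h.

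Sites whose matched-number peak appeared or disappeared with LPS in every list of both genotypes were counted next. A site was called opened when all LPS lists and no 0 h list had a matched-number peak, and closed in the reverse case. At 1 h the segments had 8 opened sites, or 1.44% of 557, and 10 closed sites, or 1.80%, beside 2.31% and 1.64% over the whole series. At 18 h they had 7 opened sites, or 1.26%, and 2 closed sites, or 0.359%, beside 1.48% and 1.65%. The flanks had 13 opened and 9 closed at 1 h, and 10 and 8 at 18 h. The shares in the segments were not tested against the series.

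The strongest opened site at 1 h was chr14:70329733-70330557, in an intron of Slc39a14, which encodes the zinc and iron transporter ZIP14. Its ranks were 1832 and 3533 in WT and 5239, 10355 and 5151 in KO at 1 h. It ranked 18303 to 22539 in the WT lists at 18 h, and 0 KO lists had a matched-number peak then, although 2 full KO lists held it just past the limit, at ranks 24617 and 24829. A site in the UTR of the olfactory receptor gene Olfr433, chr1:174043406-174044108, had 1 h ranks of 9261 to 15607 and at 18 h had matched-number peaks in the 3 WT lists and in 0 KO lists, 1 full KO list holding it at rank 27443. The site chr6:115927472-115928499, 1.53 kb beyond the 3′ end of the cilium gene Ift122, had peaks in the 5 lists at 1 h, at ranks 7426 to 19496, and in 0 other lists at any rank.

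The closed sites with the best ranks at 1 h included promoters. An intronic site of Aim2, the cytosolic DNA sensor (chr1:173426166-173428013), ranked 9526 to 16538 in the 6 lists at 0 h, was missing at 1 h, and had a matched-number peak in 5 of 6 lists at 18 h. The promoter of Pparg, a nuclear receptor of lipid metabolism (chr6:115360730-115362575), ranked 10442 to 19244 at 0 h and was missing at 1 h. It returned at 18 h in 3 WT lists and 1 KO list. Further sites before Pparg, 17.7 and 29.8 kb upstream, closed as well, and 6 of the 10 closed sites at 1 h lay in the chr6 segment. They were 6.32% of its 95 sites, beside 1.64% over the series, 4.55% of 44 sites in its right flank and 0% of 61 in its left flank, and these shares were not tested. The third by rank was the promoter of Tmem154 (chr3:84665756-84666697), with ranks of 15505 to 20837 at 0 h. Most of these sites remained in full 1 h lists at lower rank, 4 of 5 for Aim2 and Pparg and 3 of 5 for Tmem154.

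At 18 h the opened sites with the best ranks lay 9001 bp from Slamf7, a self-binding SLAM receptor (chr1:171659949-171662396, ranks 6438 to 12314), 18.5 kb from Adamtsl4 (chr3:95706129-95706726, ranks 7344 to 20179) and in an intron of Bmp1, a procollagen proteinase (chr14:70497904-70498514, ranks 11743 to 19141). The Bmp1 site had no peak of any rank at 0 h, whereas full 0 h lists held the Slamf7 and Adamtsl4 sites in 4 of 6 cases each. Of the 7 opened sites, 3 had a SLAM gene as the nearest gene, Slamf7 at 9001 bp, Slamf6 at 1.65 kb and Slamf1 at 4.95 kb. All 3 lay in the chr1 segment, which holds 202 of the 557 segment sites, and 1.49% of its sites opened at 18 h, beside 1.48% over the series. The closed sites were in the UTR of Dok2, an adaptor of tyrosine kinase signalling (chr14:70777108-70778834, ranks 9032 to 13104 at 0 h), and in an intron of the receptor gene Cd160 (chr3:96812067-96814200, ranks 13700 to 23574). Both were still in some lists at 1 h, in 3 and 2 of 5, and both were in all 6 at 0 h. At 18 h 4 of 6 full lists still held each of them, at lower rank.

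**Figure D5:**
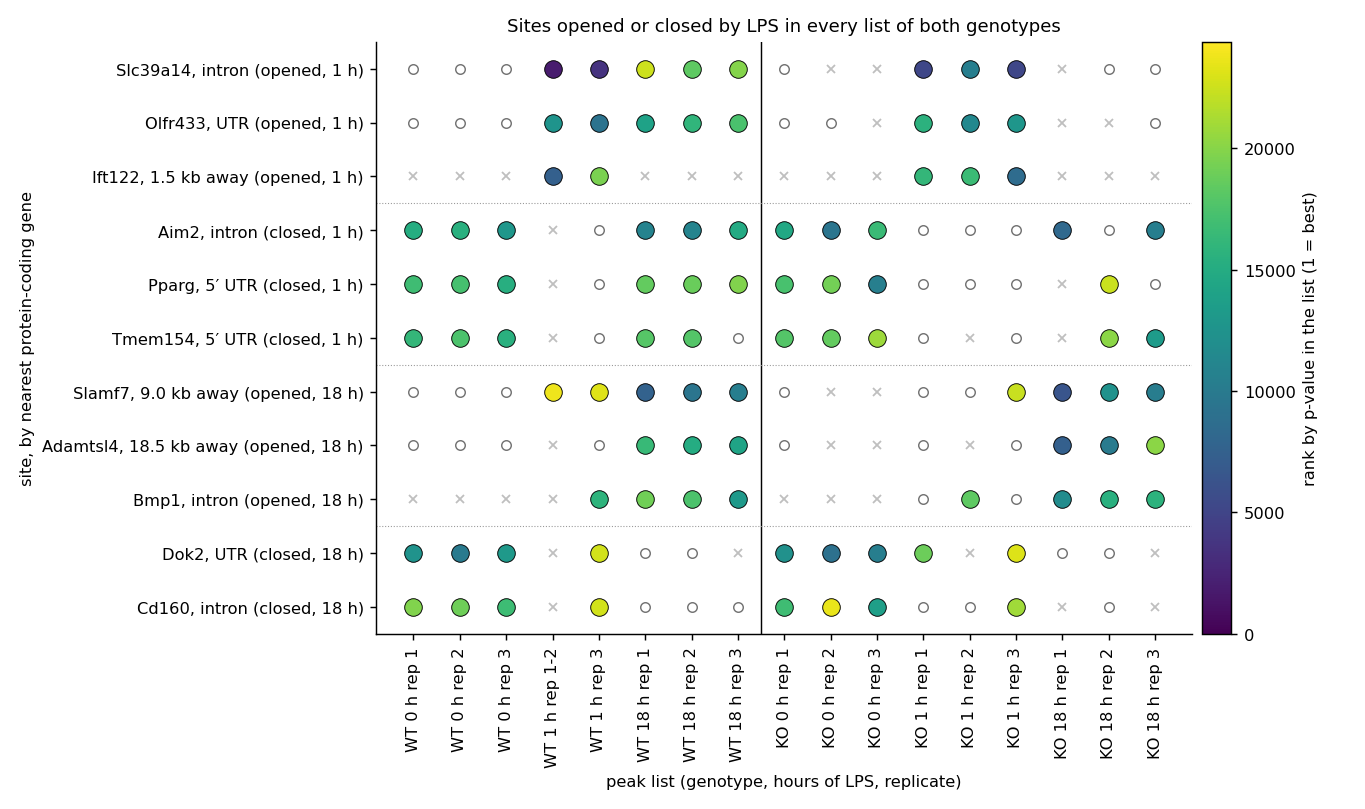
Rank of the peak at the sites opened or closed by LPS with the best mean rank, up to 3 of each kind at 1 h and at 18 h (rows), in each of the 17 lists (columns). Filled circles are matched-number peaks coloured by rank, small open circles are peaks found only in the full list and crosses are lists with no peak. The Slc39a14 site ranks 1832 to 10355 in the 5 lists at 1 h and lacks a filled circle in all 6 lists at 0 h.

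Position relative to genes and base composition were not used directly in the choice. Of the 16 divided sites, 2 had their summit within 1 kb of a transcription start (the Cd48 and Ankrd35 promoters), compared with 149 of the other 541 segment sites (27.5%) and 26.5% of all sites with a matched-number peak. The median GC content of the 201-base windows was 48.3% at divided sites, 50.2% at the other segment sites and 51.2% over all sites. Windows with over 50% masked repeat numbered 2 of 16, at Hfe2 and beyond Pebp4, and made up 5.55% of the other segment windows. These shares rest on 16 sites and were not tested.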

How the data were processed

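ATAC-seq peak lists of 17 BMDM samples were used. After trimming with cutadapt 2.6, the authors mapped to mm10, discarded alignments under mapping quality 20 as well as mitochondrial and duplicate reads, and called each sample's peaks at a q-value of 0.001. Their comparison by DiffBind 3.0.15 was not refitted, because no counts per site were used here. Each deposited list gives a score, about 10 times −log10 of the q-value. It also gives, as deposited, a fold enrichment ratio over background. Significance was deposited as −log10 of the p-value and of the q-value, and −log10 p alone was used, to rank peaks within a list.

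Entries sharing an interval were collapsed to the best p-value. The best 24389 intervals of each list were kept, with ties broken at random (seed 1), and in one list 13.9% of the kept intervals were tied at the limit. Sites were merged over the full lists, 1 bp of overlap counting, and a site had a peak where 1 bp overlapped. Genes came from GENCODE M21, sequence from GRCm38.p6. Presence and rank were described by genotype and not tested. LPS contrasts of site counts were tested by exact permutation. Named sites were, in each segment, the divided sites with the best mean rank, those nearest each boundary, and the 3 opened and 3 closed sites of best mean rank at each time, with the genes beside them and the listed gene families. Other divided sites were named although outside that rule, and 1 divided site that the rule would name and some genes are not reported here. The segments, members, gene lists and cell type markers were chosen with earlier results of these data known. The merging, presence and permutation steps were tested on simulated data. Python 3.11.15, numpy 2.4.6, pandas 2.3.3, matplotlib 3.10.9 and bedtools 2.31.1 were used.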

Additional observations from a re-analysis of the deposited data

Results flagged for a closer look

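In the chr14 segment the genotypes moved in opposite ways between 0 h and 18 h of LPS. WT lists had 45, 46 and 50 sites with a matched-number peak at 0 h and 53, 51 and 51 at 18 h, a response of 4.67, and KO lists had 51, 53 and 50 at 0 h and 41, 47 and 46 at 18 h, a response of -6.67. The KO response minus the WT response was -11.3 sites. The difference between the responses was not tested. The lowest count came from KO 18 h replicate 1, whose peaks were narrow, and the other KO lists at 18 h also lay below every KO list at 0 h. Segments other than chr14 had responses of unlike sign at 18 h too, 1 in WT and -6.67 in KO at chr6 and -1.33 and 2 at proximal chr3, and over all segments they were 25 and -3.67. Over the whole lists the responses were -170 sites in WT and -1393 in KO.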

How the results depend on the processing

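The lists give peaks and no read totals, so depth could not be compared. With the best 10000 intervals of each list, all-or-none sites in the segments numbered 1 and divided sites 4, of which 0 were higher in KO. With peaks that must cover 50% of a site they numbered 0 and 7, again 0 of them higher in KO, and with absence required from the full lists 2 and 5. With all deposited intervals the segments had 6 all-or-none and 15 divided sites and the flanks 2 and 4. Leaving out 1 list gave 5 to 7 all-or-none and 16 to 19 divided sites in the segments, and 0 and 0 to 1 in the flanks. Sites opened or closed at 1 h numbered 5 with the best 10000 intervals, 1 with all intervals, 4 with 50% cover and 1 with absence from the full lists, beside 18. At 18 h they numbered 5, 5, 2 and 2, beside 9. Leaving out 1 list gave 18 to 25 and 9 to 13. The KO minus WT difference in segment sites was -110.3 with all intervals and -74.6 with 50% cover, and -13.8 to -6.44 leaving out 1 list. The 1 h difference was -6.92 with the best 10000 intervals (exact permutation p = 0.04), -191.9 with all intervals (exact permutation p = 0.155), -115.5 with 50% cover (exact permutation p = 0.065), and -0.0311 percentage points as a share of each list (exact permutation p = 0.13). It was -24.5 to -13.5 leaving out 1 list (exact permutation p from 0.005 to 0.0167). The 18 h difference was 1.67 with the best 10000 intervals (exact permutation p = 0.58), 4.33 with sites merged from the matched-number lists (exact permutation p = 0.575), -134.8 with all intervals and -48.3 with 50% cover, both reversed, 0.0912 percentage points as a share (exact permutation p = 0.01), and 6.58 to 13.3 leaving out 1 list. The cause of these shifts was not tested. Divided counts and shares of lists were added after the data were seen.

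In 0 of 21 same-numbered pairs did deviations from the group means correlate above 0.1 (range -0.0394 to 0.0647). A low correlation does not settle whether replicate numbers pair the lists. Under a replicate block, the 1 h difference over 4 pairs was -14.75 (exact p = 0.125, the smallest 4 pairs allow).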
